A study of Mus musculus with 18 samples.

Results

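The genes described here are 9 mouse genes of gluconeogenesis and of the fasting response, out of 46078 gene identifiers in each deposited table. They are G6pc, Pck1, Fbp1, Tat, Sds, Lpin1, Pdk4, Ppargc1a and Cebpb. They were chosen by gene symbol, with the difference between mutant and control livers in these same data already known, so their liver values are given as a description and carry no test. Total RNA depleted of ribosomal RNA was sequenced from female mice. Mutants carried a homozygous deletion of Xist, the noncoding RNA that silences an X chromosome in female cells. Controls carried a heterozygous deletion and so kept an intact Xist copy; no library from mice without an Xist deletion was analysed here. Liver, spleen and brain came from postnatal day 1 mice, with 2 mutant and 2 control libraries per tissue, and primary tail-tip fibroblasts, cells grown from the skin and connective tissue of the tail, gave 3 mutant and 3 control libraries. The labels give neither the strain, nor how the deletion was made, nor when each newborn had last fed.

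Gluconeogenesis makes glucose from lactate, glycerol and amino acids, mainly in the liver. Glucagon, acting through cyclic AMP, and glucocorticoids switch on its genes in fasting, while insulin holds them down. In newborn rodents the liver turns these genes on around birth, when glucose from the mother stops, so their level at this age also depends on feeding and on the hour after birth. Pck1 and G6pc encode the enzymes that enter and leave the route, Fbp1 encodes an enzyme between them, and Tat and Sds encode enzymes that break down amino acids for it. Pdk4 and Lpin1 shift fuel use toward fat, and Ppargc1a and Cebpb encode regulators of transcription that drive such genes.

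Promoters were searched for motifs through which those hormones are known to act, and for the TATAAA box. Those of Pck1, Ppargc1a, G6pc and Lpin1 are shown, and each held a match. That of Cebpb held matches too and is not shown, whereas those of Fbp1, Tat and Pdk4 held none. Each run is the 250 bases before the RefSeq start (GRCm38.p6), 5′ to 3′ on the strand of the gene, with motif matches in capitals. The Pck1 run has the cyclic AMP response motif TGACG on the opposite strand, read here as CGTCA, 90 to 86 bases before the start. The Ppargc1a run has the same motif 49 to 45 bases before the start. The G6pc run has the insulin response motif TGTTTTG 174 to 168 bases before the start and a TATAAA box 29 to 24 bases before it. The Lpin1 run has the glucocorticoid motif AGAACA on the opposite strand, read as TGTTCT, 163 to 158 bases before the start.
Pck1 promoter, chr2:173152823-173153072, plus strand: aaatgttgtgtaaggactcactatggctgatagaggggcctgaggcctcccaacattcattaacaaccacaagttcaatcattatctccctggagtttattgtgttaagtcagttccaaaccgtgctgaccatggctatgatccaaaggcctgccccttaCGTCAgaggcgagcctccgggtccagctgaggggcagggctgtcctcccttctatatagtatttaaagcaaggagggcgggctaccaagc
Ppargc1a promoter, chr5:51567726-51567975, minus strand: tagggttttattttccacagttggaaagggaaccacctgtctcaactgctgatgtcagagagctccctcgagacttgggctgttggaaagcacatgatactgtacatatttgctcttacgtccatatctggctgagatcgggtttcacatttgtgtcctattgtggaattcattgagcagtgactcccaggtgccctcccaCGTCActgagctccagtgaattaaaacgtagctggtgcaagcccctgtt
G6pc promoter, chr11:101367466-101367715, plus strand: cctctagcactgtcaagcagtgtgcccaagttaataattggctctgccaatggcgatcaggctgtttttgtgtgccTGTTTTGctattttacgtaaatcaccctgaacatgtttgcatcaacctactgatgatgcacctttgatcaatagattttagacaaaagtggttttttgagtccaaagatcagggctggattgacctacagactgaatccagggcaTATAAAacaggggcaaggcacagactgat
Lpin1 promoter, chr12:16610967-16611216, minus strand: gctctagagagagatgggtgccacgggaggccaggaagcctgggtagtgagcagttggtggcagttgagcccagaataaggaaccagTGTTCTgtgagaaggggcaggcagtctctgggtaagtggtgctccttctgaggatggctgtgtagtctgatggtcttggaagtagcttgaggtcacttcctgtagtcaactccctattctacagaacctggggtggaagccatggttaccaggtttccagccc

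RefSeq promoters were found for 8 of the 9 genes, all but Sds. Both strands were searched for 6 motifs, and overlaps between motifs were allowed. TGACG occurred in 3 of the 8, those of Pck1, Ppargc1a and Cebpb, and in 17.8% of all 32851 promoters in the table. The Cebpb promoter was 81.6% G and C, against a median of 52.4% over all promoters. AGAACA occurred in 1 of 8 and in 16.1% of all, TGTTTTG in 1 of 8 and in 5.56% of all, and TATAAA in 1 of 8 and in 12.4% of all. TTGCNNAA, bound by C/EBP proteins, and TGTTTAC, bound by forkhead proteins, were in none of the 8, against 9.56% and 3.17% of all. A match is a stretch of letters and not evidence of binding in these livers.

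Values below are in signal, a read count per gene that the authors scaled within each tissue, in which 1 read was worth 0.0343 to 0.0751. Libraries held 12.4 M to 29.2 M reads in genes. Where a library shows 0 reads, a true level of up to 3 reads (0.103 to 0.225 signal) is compatible with it at 95% confidence, for counting error alone. Xist checked the labels. Its signal was 178 and 257 in mutant livers against 594 and 730 in control livers, 117 and 51.2 in mutant spleens, where controls had 1205 and 1121, and only 3.62 and 4.15 in mutant brains against 666 and 683 in control brains. In fibroblasts it was 11.0, 13.5 and 2.33 in mutants against 141, 98.2 and 70.5 in controls. Each mutant library was below each control library of its tissue, and mutant livers kept a sizeable Xist signal. The hepatocyte markers Alb, Ttr, Apoa1, Apoa2, Trf, Serpina1a, Fgb and Ahsg together reached 131977 and 107737 in mutant livers and 133985 and 111278 in control livers, and none was at 0 in a liver library. Of these 8, 7 had a log2 difference below 0 and 1 above, with a median of -0.05, and limma and DESeq2 called none. Ttr had 1172 and 779 in mutant livers against 2451 and 1573 in control livers. Apoa2 was also lower in both mutants, and Fgb was higher in both. The neuronal marker Tubb3 had 2120 and 1948 in mutant brains against 2374 and 1979 in control brains, markers of stellate cells and fibroblasts summed to 30499, 21728 and 20830 in mutant fibroblasts against 19103, 18769 and 18359 in control fibroblasts, and red-cell markers, from blood formation in the newborn spleen, to 16054 and 20313 in mutant spleens against 37372 and 19229 in control spleens.

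In liver, 8 of the 9 genes were higher in both mutant libraries than in both control libraries, and Fbp1 was lower in both. Over all 15075 genes tested in liver, every mutant library lay above every control library for 23.5% and below for 13.1%. Because the genes were picked on this contrast, nothing is read from that count. Together the 9 genes took 1.54% and 1.10% of the reads in genes of the mutant livers, against 0.308% and 0.407% in the control livers. Set per kilobase of exon, the order of mean signal in mutant livers was Tat at 1791, Pck1 at 1239, G6pc at 792, Fbp1 at 367, Sds at 291, Lpin1 at 129, Cebpb at 93.7, Pdk4 at 39.7 and Ppargc1a at 27.6. In control livers it was Pck1 at 509, Fbp1 at 477, Tat at 181, G6pc at 139, Cebpb at 46.9, Sds at 23.4, Pdk4 at 8.98, Ppargc1a at 5.44 and Lpin1 at 4.27. With 2 libraries a group, neighbours such as G6pc and Tat in control livers, whose per-kilobase values were 157 and 121 against 139 and 223, were not apart beyond their spread.

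**Figure D1:**
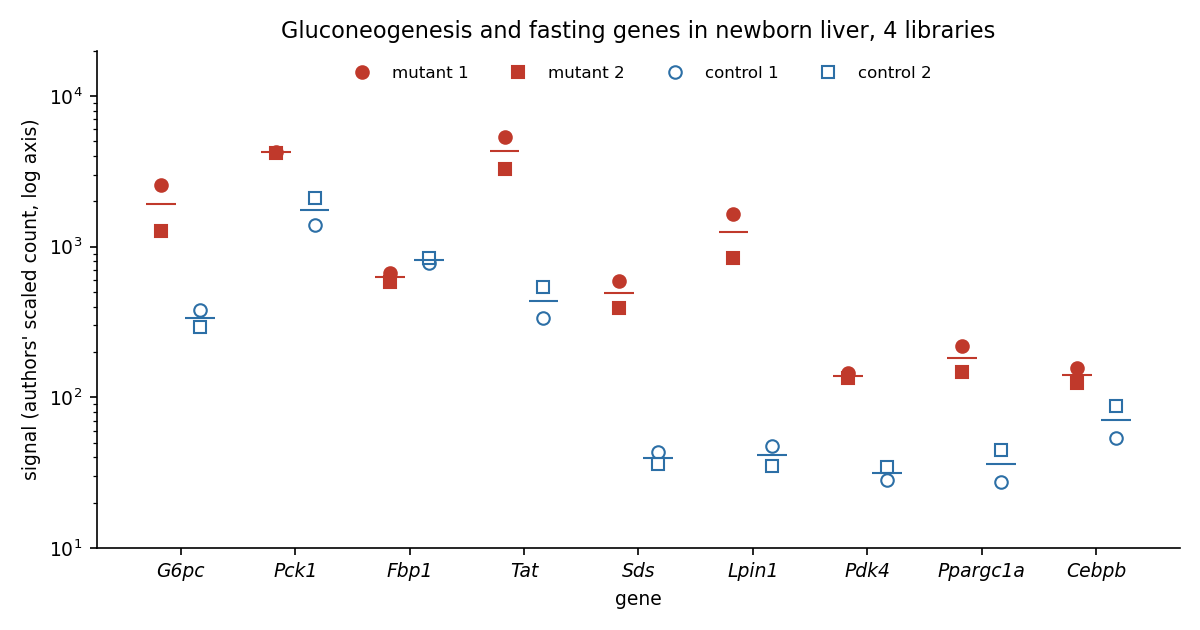
Signal of the 9 genes in the 4 newborn liver libraries, on a log axis, with mutants as filled and controls as open symbols and the group mean (n = 2) as a line. Tat, Sds and Lpin1 show the widest gaps between the groups, and Fbp1 is the gene with mutants below controls.

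Among the enzymes of the route itself, Pck1 (ENSMUSG00000027513, chromosome 2, 173153048 to 173159273, plus strand, GRCm38) encodes phosphoenolpyruvate carboxykinase, which commits carbon to glucose. Its signal was 4282 and 4216 in mutant livers against 1396 and 2097 in control livers. The mutants were nearly equal and both lay above the controls. The mean was 4249 ± 46.8 in mutants and 1746 ± 496 in controls (SD, n = 2 each), 2.43-fold higher in mutants.

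G6pc (ENSMUSG00000078650, chromosome 11, 101367561 to 101377903, plus strand) encodes the catalytic subunit of glucose-6-phosphatase, which releases free glucose. It had a signal of 2549 and 1273 in mutant livers against 380 and 291 in control livers. The mutants differed from each other 2.00-fold, yet the lower of them was 3.35-fold above the higher control. The mean was 1911 ± 902 in mutants and 336 ± 62.7 in controls, 5.69-fold higher in mutants.

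Fbp1 (ENSMUSG00000069805, chromosome 13, 62864753 to 62888282, minus strand) encodes fructose-1,6-bisphosphatase, the enzyme of the route between those of Pck1 and G6pc. Its signal was 666 and 582 in mutant livers against 778 and 845 in control livers. Both mutants lay below both controls, by a small margin. The mean was 624 ± 59.3 in mutants and 811 ± 47.3 in controls, a ratio of 0.769.

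Tat (ENSMUSG00000001670, chromosome 8, 109990437 to 109999803, plus strand) encodes tyrosine aminotransferase, a classic glucocorticoid-induced liver enzyme. Its signal was 5327 and 3290 in mutant livers against 334 and 536 in control livers. The lower mutant was 6.14-fold above the higher control. The mean was 4308 ± 1441 in mutants and 435 ± 143 in controls, 9.91-fold higher in mutants. Sds (ENSMUSG00000029597, chromosome 5, 120476526 to 120483932, plus strand) encodes serine dehydratase, which turns serine into pyruvate. It had 592 and 393 in mutant livers against 43.1 and 36.1 in control livers, with means of 492 ± 141 and 39.6 ± 4.95, 12.4-fold higher in mutants. Here the gap between groups, 9.12-fold from the lower mutant to the higher control, was wide beside the spread within them.

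Lpin1 (ENSMUSG00000020593, chromosome 12, 16535669 to 16610966, minus strand) encodes lipin 1, a phosphatidate phosphatase that also acts with Ppargc1a on genes of fat oxidation. Its signal was 1652 and 835 in mutant livers against 47.6 and 34.97 in control livers. It had the widest gap of the 9 genes, with the lower mutant 17.5-fold above the higher control. The mean was 1243 ± 578 in mutants and 41.3 ± 8.95 in controls, 30.1-fold higher in mutants. Pdk4 (ENSMUSG00000019577, chromosome 6, 5483351 to 5496309, minus strand) encodes a kinase that shuts off pyruvate dehydrogenase and so spares pyruvate. Its signal was 145 and 133 in mutant livers against 28.4 and 34.7 in control livers, 4.41-fold higher in mutants by the means. The replicates of each group were close to each other.

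Ppargc1a (ENSMUSG00000029167, chromosome 5, 51454250 to 51567726, minus strand) encodes PGC-1alpha, a coactivator of Pck1 and G6pc in fasting liver. Its signal was 218 and 146 in mutant livers against 27.4 and 44.3 in control livers, 5.08-fold higher in mutants by the means. Cebpb (ENSMUSG00000056501, chromosome 2, 167688915 to 167690418, plus strand) encodes a transcription factor that binds the promoters of Pck1 and of other liver genes. Its signal was 157 and 125 in mutant livers against 53.9 and 87.1 in control livers, 2.00-fold higher in mutants by the means. The lower mutant was 1.44-fold above the higher control, the narrowest gap among the 8 genes that were higher.

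The 2 mutant livers were not alike. Mutant 1 had the higher signal for all 9 genes, from 1.02-fold for Pck1 to 2.00-fold for G6pc. Of the control livers, control 2 was the higher for Pck1, Fbp1, Tat, Ppargc1a, Pdk4 and Cebpb, and control 1 for G6pc, Sds and Lpin1. Markers of other cells were compared as well, and limma called none of those given here. The summed signal of 8 endothelial markers was 850 and 867 in mutant livers against 615 and 706 in control livers, with all 8 above 0 on the log2 difference. That of 8 markers of stellate cells and fibroblasts was 494 and 459 in mutants against 324 and 410 in controls, with 6 of 7 tested above 0. Red-cell markers summed to 27518 and 11882 in mutants against 21283 and 7127 in controls, and the groups overlapped for all 8. No marker of these lists was at 0 in every library. Their part in the liver values was not tested. In bulk tissue, fewer cells of a type and less RNA per cell cannot be told apart.

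The other enzymes and transporters of the route lay on both sides of 0 in liver. Of 28 listed, 26 could be tested in liver, and 9 had a log2 difference above 0 and 17 below, with a median of -0.13 against 0.05 over all 15075 genes, of which 55.9% were above 0. The sign of that median rested on single libraries: it was 0.21 without mutant 1 and 0.10 without control 2. limma called 0 of them, as it called 0% of all genes in liver at an adjusted p under 0.05, while 1006 genes had an unadjusted p under 0.05. DESeq2, run as the alternative, called 0.955% of genes higher and 0.444% lower in liver. From this list it called Got1, the cytosolic aspartate aminotransferase, which was 2405 and 1584 in mutant livers against 634 and 415 in control livers (log2 difference 1.93 ± 0.39 SE, limma adjusted p = 0.515, DESeq2 adjusted p = 0.00234). Gpt2, a mitochondrial alanine aminotransferase, had 63.7 and 61.4 in mutants against 41.5 and 35.9 in controls. Gpd1, the cytosolic glycerol-3-phosphate dehydrogenase, was on the other side at 26.0 and 118 in mutants against 210 and 357 in controls, and Ldha, a lactate dehydrogenase, had 237 and 284 in mutants against 357 and 448 in controls. Gpt2, Gpd1 and Ldha were not called by limma or DESeq2. At the start of the route from pyruvate stands Pcx, which makes oxaloacetate. Its groups overlapped, at 884 and 1238 in mutants against 1008 and 1442 in controls. Slc37a4, the transporter that feeds glucose-6-phosphatase, had 181 and 294 in mutants against 142 and 155 in controls. Pcx and Slc37a4 were picked after their values were seen. Eno1, Pgam1, Pgk1 and Gapdh have near-identical copies in the genome, so their counts are uncertain.

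**Figure D2:**
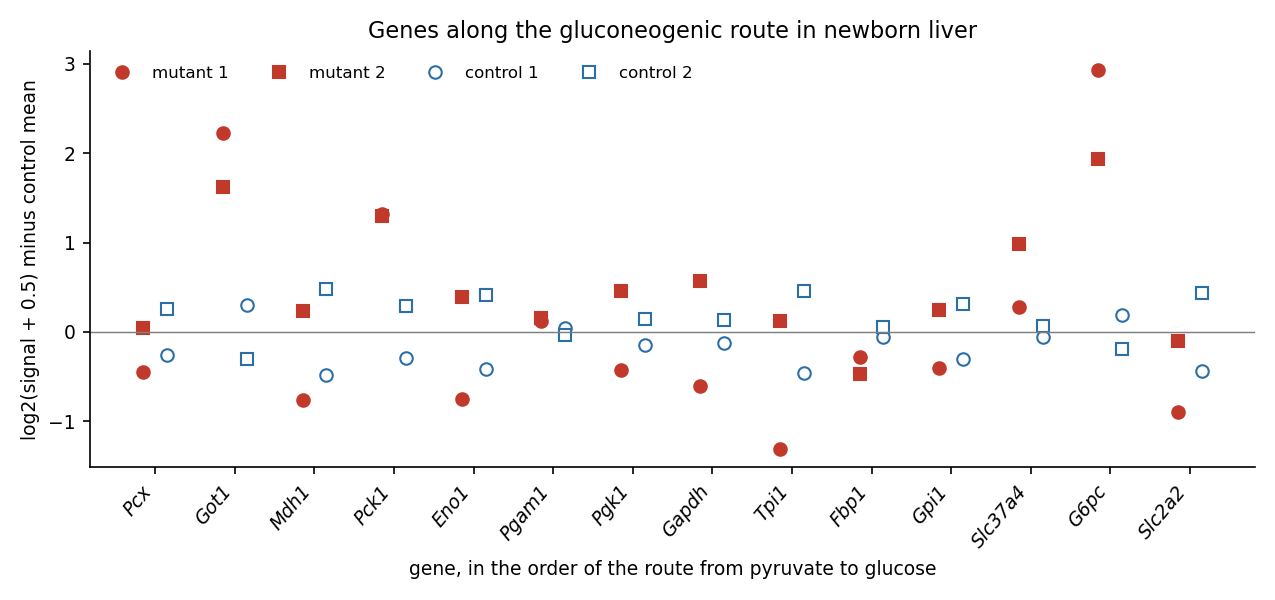
Log2(signal + 0.5) minus the control mean in each newborn liver library for genes along the route from pyruvate to glucose, with mutants filled and controls open; the genes were picked after their values were seen. Got1, Pck1 and G6pc have both mutants over 1 log2 unit above the control mean, and Fbp1 has both below it.

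The amino acid enzymes on the list besides Tat and Sds were mixed. All 20 were tested in liver, 11 with a log2 difference above 0 and 9 below, with a median of 0.15 that was -0.31 without control 1 and -0.22 without mutant 2. limma called 0 of them and DESeq2 called 1. Oat, ornithine aminotransferase, had 159 and 210 in mutant livers against 64.9 and 103 in control livers (log2 difference 1.16 ± 0.32 SE, limma adjusted p = 0.653, DESeq2 adjusted p = 0.111), and Sdsl, a relative of Sds, had 44.2 and 63.6 in mutants against 14.2 and 31.4 in controls. Aass, of lysine breakdown, had 469 and 324 in mutants against 226 and 249 in controls. Both mutants were above both controls for Oat, Sdsl and Aass.

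Of 29 listed regulators of the fasting response, 27 were tested in liver, 19 with a log2 difference above 0 and 8 below, with a median of 0.44 that was 0.22 without mutant 2. limma called 0 and DESeq2 called 6, all of them higher in mutants. Cebpd, a close relative of Cebpb, had 84.5 and 75.5 in mutant livers against 18.1 and 22.1 in control livers (log2 difference 1.97 ± 0.22 SE, limma adjusted p = 0.218, DESeq2 adjusted p = 1.02e-07). Ppargc1b, the relative of Ppargc1a, had 47.1 and 43.3 in mutants against 8.33 and 12.5 in controls (DESeq2 adjusted p = 9.57e-07). Nr4a1, an orphan nuclear receptor induced by cyclic AMP in liver, had 14.9 and 6.52 in mutants against 0.827 and 2.41 in controls, and Trib3, an inhibitor of insulin signalling through Akt, had 25.4 and 17.3 in mutants against 5.60 and 8.12 in controls. The other two DESeq2 calls were Klf15 and Sik1, named because they were called.

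The fasting-induced effectors, genes that act downstream in fat and nutrient use, gave 12 of 20 tested in liver with a log2 difference above 0 and 8 below, with a median of 0.57. DESeq2 called 5 higher and 1 lower, and limma called 0. Ddit4, an inhibitor of mTOR signalling, had 164 and 84.4 in mutant livers against 6.49 and 8.36 in control livers (log2 difference 3.91 ± 0.37 SE, limma adjusted p = 0.174, DESeq2 adjusted p = 1.2e-15). Angptl4, a secreted inhibitor of lipoprotein lipase, had 272 and 298 in mutants against 97.0 and 101 in controls. Txnip, which restrains glucose uptake, had 1467 and 835 in mutants against 264 and 253 in controls, and Pnpla2, the triglyceride lipase of lipid droplets, had 317 and 374 in mutants against 115 and 164 in controls. Igfbp1 was the other gene called higher. Fgf21, a fasting hormone of the liver, was the gene called lower, at 0.0476 and 0.0686 in mutants against 3.63 and 0.643 in controls, so mutants held 3 reads or fewer each. Igfbp1 and Fgf21 are named because they were called.

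The genes listed as induced by feeding lay on both sides of 0 too. Of 20 listed, 18 were tested in liver, 7 with a log2 difference above 0 and 11 below, with a median of -0.16 that was 0.10 without mutant 2. DESeq2 called Ppp1r3g, a glycogen-targeting subunit of protein phosphatase 1, and limma called none. Ppp1r3g stood at 257 and 99.1 in mutant livers against 4.64 and 4.70 in control livers (log2 difference 4.95 ± 0.48 SE, limma adjusted p = 0.174, DESeq2 adjusted p = 6.17e-19). Its place among the feeding-induced genes comes from the list alone, and its response to feeding was not tested here. Insig1, which holds back sterol synthesis, had 94.4 and 55.6 in mutants against 41.7 and 28.0 in controls, and Ppp1r3b, another glycogen-targeting subunit, had 72.1 and 38.5 in mutants against 25.8 and 34.9 in controls. Pnpla3, a lipid-droplet protein raised by feeding, had 1.19 and 1.06 in mutants against 2.61 and 3.98 in controls. Of the 12 genes of glycogen storage and breakdown, 4 were above 0 and 8 below, with 0 calls by either tool and a median of -0.10 that was 0.08 without mutant 1 and 0.06 without control 2. Pygl, the liver glycogen phosphorylase, had 182 and 173 in mutants against 217 and 243 in controls.

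All 16 genes on a list of glucocorticoid receptor targets had a log2 difference above 0 in liver, with a median of 1.62. limma called 0 and DESeq2 called 9, all higher in mutants. Zbtb16 had 211 and 145 in mutant livers against 20.0 and 28.9 in control livers (log2 difference 2.84 ± 0.31 SE, limma adjusted p = 0.21, DESeq2 adjusted p = 7.7e-11). Tsc22d3, which encodes the glucocorticoid-induced leucine zipper protein GILZ, had 112 and 55.0 in mutants against 15.6 and 18.6 in controls (DESeq2 adjusted p = 0.000256). Ddit4, Angptl4, Klf9, Klf15, Mt1 and Mt2 also stand on the fasting lists, so the lists are not separate. The list was drawn up with results of these data known and is no independent evidence of its direction.

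**Figure D3:**
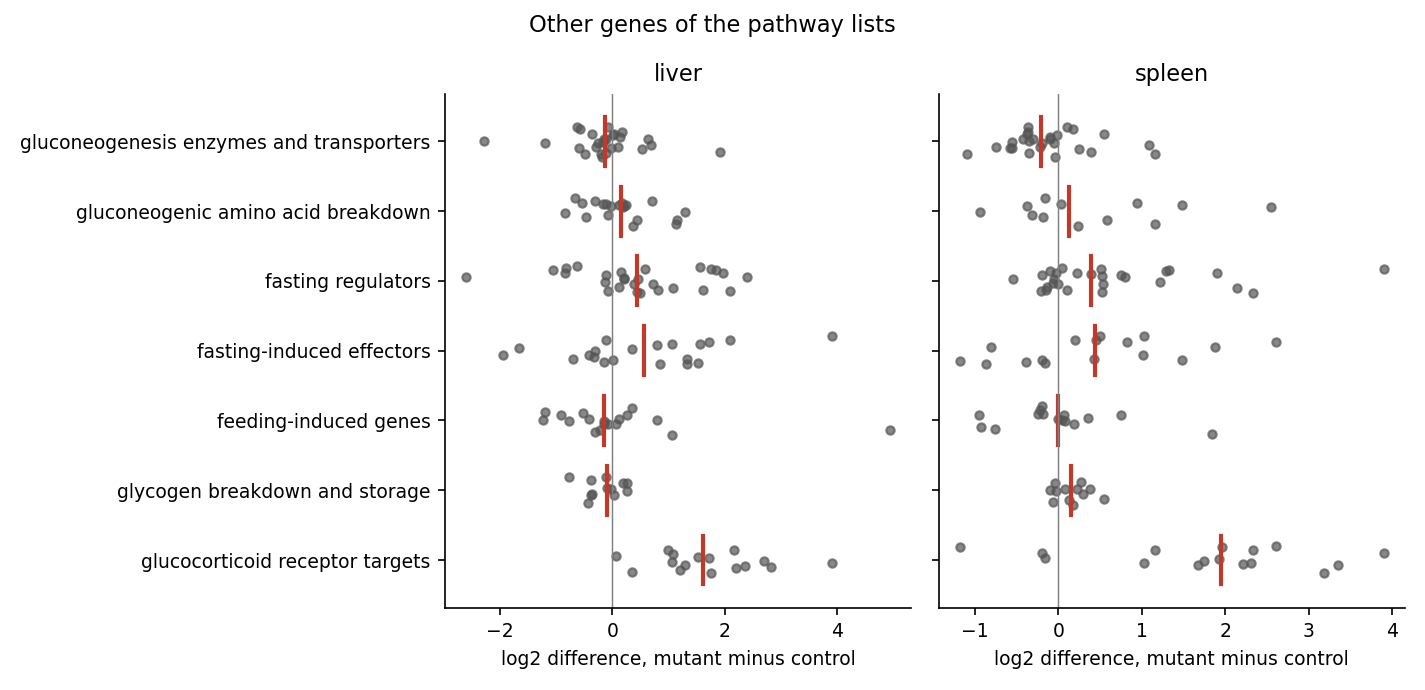
Log2 difference, mutant minus control, of the tested genes of each list in liver and in spleen, with 1 point per gene and the list's median as a bar. The glucocorticoid receptor targets lie furthest to the right, with a median of 1.62 in liver and 1.94 in spleen, while the gluconeogenesis enzymes and transporters have medians of -0.13 and -0.21.

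The genes were chosen with the liver contrast known, and in the other tissues they were tested with limma. Earlier results of these data were known at that choice, so these fits are no independent evidence. In spleen 8 of 9 were tested, since Sds fell below the filter of a mean signal of 1 in the table. limma called none, and it called 0% of all 16578 genes, with 1039 at an unadjusted p under 0.05. The libraries of the groups did not overlap for 5 of the 8 tested genes, all higher in mutants, against 18.3% of all tested genes above and 21.9% below. For Tat, 1 of these 5, the lower mutant had 0.750 and the higher control 0.689. Sds, not tested, did not overlap either, on 13 reads or fewer in each library. DESeq2 called 0.972% of genes higher and 0.148% lower in spleen, and among the 9 it called Pdk4.

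Pdk4 had a signal of 91.6 and 119 in mutant spleens against 8.07 and 17.5 in control spleens. The lower mutant was well above the higher control. The mean was 105 ± 19.2 in mutants and 12.8 ± 6.69 in controls (SD, n = 2 each), 8.22-fold higher in mutants (log2 difference 3.08 ± 0.40 SE, limma adjusted p = 0.178, DESeq2 adjusted p = 2.06e-09). The log2 difference was 3.26 without mutant 1, 2.89 without mutant 2, 2.54 without control 1 and 3.61 without control 2. Each of those fits has 1 library in 1 group, taken to vary as the other group does, so no call is read from them.

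Lpin1, Ppargc1a and Cebpb also had both mutant spleens above both controls. Lpin1 had 122 and 78.2 in mutants against 32.8 and 49.0 in controls (log2 difference 1.27 ± 0.34 SE, limma adjusted p = 0.599, DESeq2 adjusted p = 0.0662). Ppargc1a had 4.13 and 3.43 in mutants against 1.38 and 1.43 in controls (1.16 ± 0.37, limma adjusted p = 0.722). Cebpb had 174 and 143 in mutants against 64.9 and 98.6 in controls (0.97 ± 0.32, limma adjusted p = 0.733). None of these 3 passed either test.

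The liver enzymes Pck1, G6pc and Tat behaved otherwise in spleen, where 1 library carried most of their signal. Pck1 had 32.1 and 1.23 in mutant spleens against 3.93 and 1.37 in control spleens, G6pc had 7.14 and 0.161 in mutants against 0.965 and 0.477 in controls, and Tat had 17.1 and 0.750 in mutants against 0.689 and 0.179 in controls. Spleen mutant 1 was the high library for each, while mutant 2 lay within or near the controls. The log2 difference was 1.38 for Pck1 (limma adjusted p = 0.802), 0.91 for G6pc (0.832) and 2.39 for Tat (0.779). Without mutant 1 it was -0.73, -0.86 and 0.48, and without mutant 2 it was 3.50, 2.67 and 4.29. Fbp1, which white blood cells also express, had 5.48 and 5.25 in mutants against 4.21 and 8.53 in controls, and Sds had 0.976 and 0.536 in mutants against 0.207 and 0.119 in controls.

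Albumin, made by hepatocytes, also differed widely between spleen libraries, but it was high in control 1 as well as in mutant 1. Its signal was 264 and 9.49 in mutant spleens against 192 and 3.40 in control spleens, so the libraries numbered 1 held most of it. Per 1000 units of albumin signal, G6pc was 27.0 in spleen mutant 1 and 31.8 in liver mutant 1, against 5.04 in spleen control 1 and 4.52 in liver control 1. Tat was 64.8 in spleen mutant 1 and 66.5 in liver mutant 1, against 3.60 in spleen control 1 and 3.97 in liver control 1. In these libraries the spleen and liver ratios of G6pc and Tat were close within each genotype, though spleen control 1 held only 14 G6pc reads and 10 Tat reads. Those of Sds were less close. Sds was 3.70 in spleen mutant 1 and 7.40 in liver mutant 1, against 1.08 in spleen control 1, on 3 reads, and 0.512 in liver control 1. In the libraries numbered 2, which held little albumin in spleen, G6pc was 16.9 in spleen mutant 2 and 26.0 in liver mutant 2, against 140 in spleen control 2 and 5.90 in liver control 2. Tat was 79.1 in spleen mutant 2 and 67.0 in liver mutant 2, against 52.6 in spleen control 2 and 10.9 in liver control 2. The controls numbered 2 were thus far apart, on 57 albumin reads, 8 G6pc reads and 3 Tat reads in the spleen. Spleen mutant 2 held 3 G6pc reads and 14 Tat reads. In the libraries numbered 1, Pck1 was 121 in spleen mutant 1 and 53.5 in liver mutant 1, against 20.5 in spleen control 1 and 16.6 in liver control 1. Pdk4 was 347 in spleen mutant 1 against 1.81 in liver mutant 1, and 42.1 in spleen control 1 against 0.338 in liver control 1. The ratio of Pdk4 to albumin was far higher in spleen than in liver in both groups. Whether liver RNA entered the spleen libraries was not tested.

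**Figure D4:**
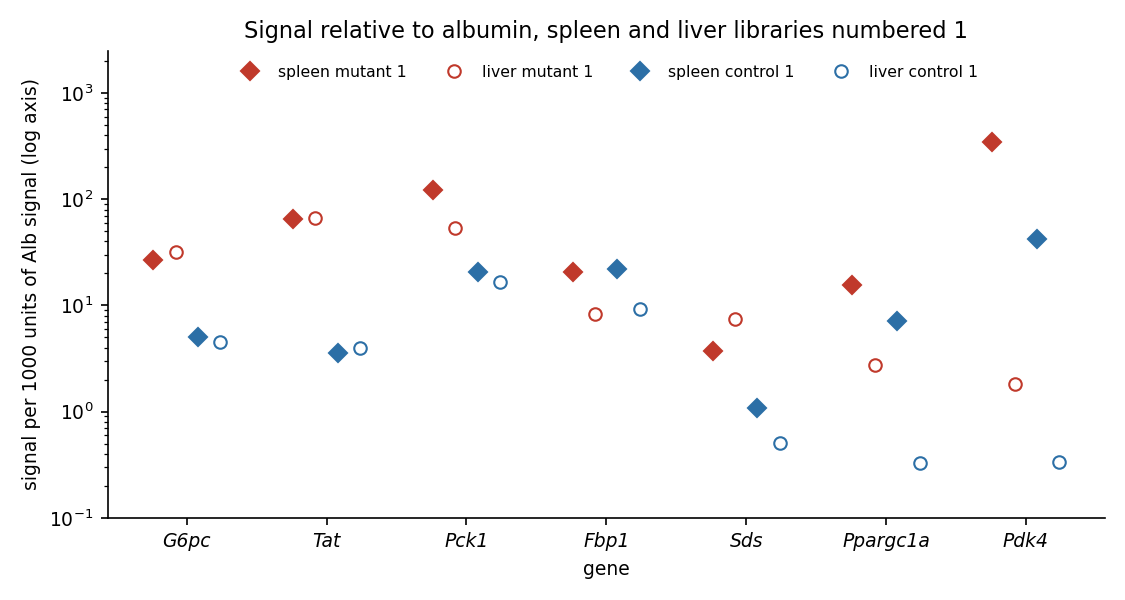
Signal per 1000 units of albumin signal, on a log axis, in the spleen (diamonds) and liver (circles) libraries numbered 1. For G6pc and Tat the spleen and liver symbols of the same genotype nearly coincide, at 27.0 and 31.8 in mutants for G6pc, whereas Ppargc1a and Pdk4 lie higher in spleen than in liver.

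Markers of other cells were compared in spleen too, and limma called none of those given here. The summed signal of 8 markers of stellate cells and fibroblasts was 3631 and 2407 in mutant spleens against 1437 and 1907 in control spleens, with 7 of 7 tested above 0. That of 8 endothelial markers was 1665 and 1542 in mutants against 969 and 1489 in controls, with 7 of 8 above 0. DESeq2 called 2 genes of each of these lists, all higher in mutants. The 8 adipocyte markers summed to 98.8 and 36.1 in mutants against 11.3 and 9.90 in controls, almost all of it Fabp4. Ucp1 was at 0 in all 4 spleen libraries and Adipoq in both mutants. Neuronal markers summed to 38.5 and 29.6 in mutants against 13.3 and 16.6 in controls, with 6 of 6 tested above 0. The red-cell markers, whose sums are given above, had 8 of 8 below 0, with a median log2 difference of -0.95. Over all genes tested in spleen, 43.5% were above 0. Pancreas acinar markers summed to 15.8 and 8040 in mutants against 1050 and 9.12 in controls. The part of these cells in the values for Pdk4, Lpin1, Ppargc1a and Cebpb was not tested.

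The wider lists in spleen again had 0 limma calls. The glucocorticoid receptor targets had 13 of 16 above 0 with a median log2 difference of 1.94, against -0.07 over all genes, and DESeq2 called 11 of them, all higher in mutants. Zbtb16 had 326 and 154 in mutant spleens against 14.7 and 31.4 in control spleens (log2 difference 3.35 ± 0.48 SE, limma adjusted p = 0.205, DESeq2 adjusted p = 2.14e-09). Among the regulators DESeq2 called 3 of 27, including Cebpd at 179 and 161 in mutants against 28.9 and 50.2 in controls, and Klf15, a glucocorticoid-induced activator of amino acid breakdown, at 61.6 and 49.5 in mutants against 3.45 and 3.04 in controls (limma adjusted p = 0.0746, DESeq2 adjusted p = 1.37e-21). Of the effectors it called 2 of 16, both higher in mutants and Ddit4 among them, at 88.8 and 115 in mutants against 11.4 and 23.0 in controls. Klf15 is named because it was called.

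In brain 4 of the 9 genes were tested and limma called none of them, against 4 of 16909 genes (0.0237%) called in all. DESeq2 called 0.242% of genes and none of the 4. Pdk4 had 7.04 and 5.26 in mutant brains against 3.50 and 2.44 in control brains (log2 difference 0.94 ± 0.26 SE, limma adjusted p = 0.873). Lpin1 had 73.2 and 70.0 in mutants against 62.4 and 62.9 in controls, and Ppargc1a had 42.9 and 42.7 in mutants against 37.9 and 42.2 in controls. Both mutants were above both controls for these 3, against 13.8% of all tested genes. Cebpb had 9.75 and 6.51 in mutants against 4.97 and 6.86 in controls and overlapped. The other 5 genes had 10 reads or fewer in each brain library.

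In fibroblasts 3 of the 9 genes were tested, limma called none of 13077 genes (0%), with 127 at an unadjusted p under 0.05, and DESeq2 called 0.023% and none of the 3. Lpin1 had 21.2, 43.9 and 45.6 in mutants against 72.0, 40.7 and 39.6 in controls. Pdk4 had 1.81, 8.63 and 8.25 in mutants against 2.92, 12.3 and 7.83 in controls. Cebpb had 175, 88.1 and 123 in mutants against 107, 126 and 131 in controls. The groups overlapped for all 9 genes, while every mutant library lay above every control library for 2.07% of the genes tested. G6pc, Pck1, Tat and Sds had 0 reads in all 6 libraries, which allows up to 3 reads each, and Fbp1 and Ppargc1a had 24 reads or fewer.

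**Figure D5:**
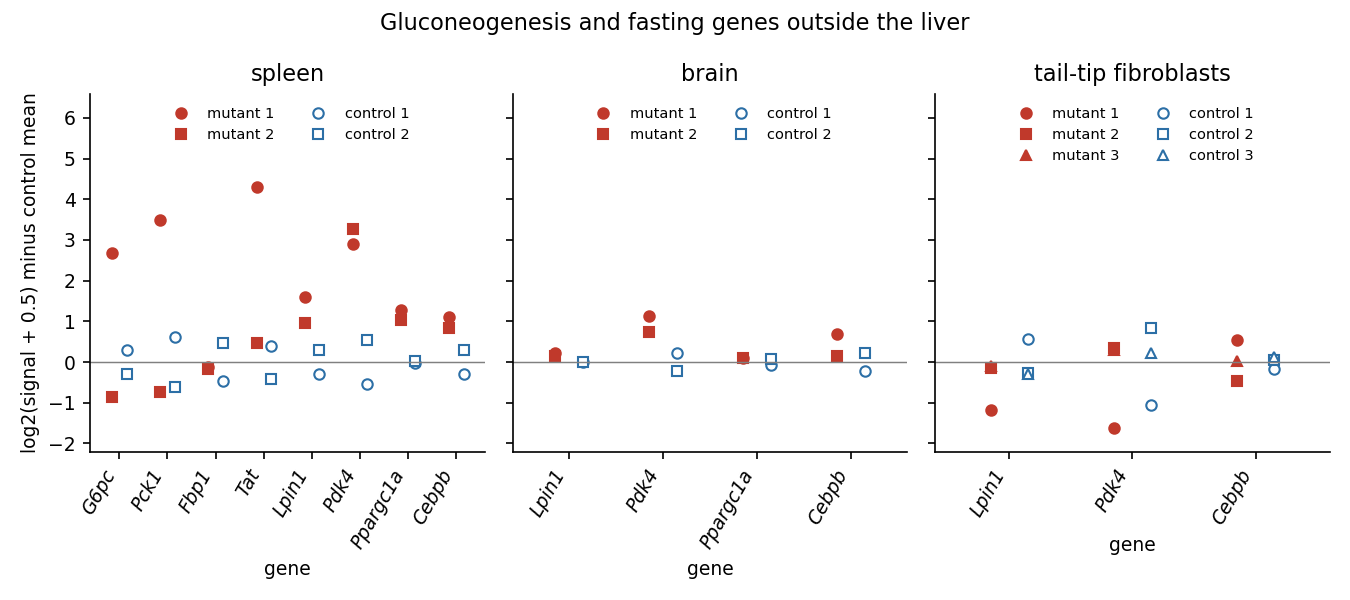
Log2(signal + 0.5) minus the control mean in each spleen, brain and tail-tip fibroblast library for the genes tested there, with mutants filled and controls open. In spleen Pdk4 has both mutants about 3 log2 units above the control mean, whereas G6pc, Pck1 and Tat are high in mutant 1 alone.

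The mean profile of the 9 genes over the 18 libraries, as log2(signal + 0.5) minus the control mean of the tissue, was 2.54 and 2.04 in mutant livers, 2.04 and 0.61 in mutant spleens, 0.31 and 0.11 in mutant brains, and -0.26, 0.13 and -0.00 in mutant fibroblasts. Only 4 of the 9 genes in brain and 3 in fibroblasts reached a mean signal of 1, and the added 0.5 shrinks differences of the others. Of 15066 genes ranked by root mean square difference from that profile, the nearest were Rgs1 at 0.297, Usp29 at 0.309, Tle1 at 0.311, Cd14 at 0.320 and Gm37728 at 0.322, against a median of 0.976. The 9 genes themselves lay farther from their mean profile than these, from 0.368 for Ppargc1a to 0.921 for Lpin1 and 1.06 for Fbp1. Tle1, a transcriptional corepressor, had 323 and 259 in mutant livers against 71.9 and 104 in control livers. Rgs1, a regulator of G protein signalling, had 12.6 and 7.55 in mutant livers against 2.67 and 1.41 in control livers.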

How the data were processed

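RNA was sequenced from 18 libraries in 8 groups, and per the series' design text the replicates were biological, so p-values measure the spread between these samples. The deposited values are a signal, read counts per gene that the authors scaled; per the submitters' processing notes HTSeq 0.6.1 and edgeR (no version given) and GRCm38 (mm10) were used. Aligner, annotation release and strand setting: not given in the sources used here. Control columns are named WT, whereas the labels give a heterozygous deletion. All values came out as whole reads at a tolerance of 0.05, and replicates differed beyond counting error. Intervals and floors cover counting error only. Of 46078 identifiers, 45143 matched GENCODE M21 names.

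Each tissue was fitted alone, mutant minus control, with limma 3.58.1 in R 4.3.3 (two-sided, moderated with an intensity trend) on log2(signal + 0.5), keeping genes whose mean signal in the table reached 1; calls needed a Benjamini-Hochberg adjusted p under 0.05 over all genes kept. Alternatives were pseudocounts of 0.1 and 2, no filter, a minimum of 5, quantile normalization, edgeR 4.0.16 and DESeq2 1.42.0 on recovered reads, a replicate block and leaving out each library. The scripts were tested on simulated data. Genes and lists were chosen with earlier results of these data known. Named genes are the 9, up to 4 per list with the smallest limma p in liver, and the 5 nearest profiles; others are marked as picked later. Promoters are from RefSeq (GRCm38.p6). Some listed genes are not reported here by name.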

Additional observations from a re-analysis of the deposited data

Results flagged for a closer look

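Genes of the wider lists in which every mutant library moved one way in 1 tissue and the opposite way in another are given here; the difference between tissues was not tested. Trib3 had a log2 difference of 1.57 in liver and 0.87 in fibroblasts, against -0.52 in brain. Ppp1r3b had 0.80 in liver and 0.36 in spleen, against -0.37 in brain. Oat had 1.16 in liver and -0.14 in brain. Stbd1, a glycogen-binding protein, had -0.92 in brain and 0.48 in fibroblasts. Their brain levels were low for Trib3, at 1.16 and 0.936 in mutants and 1.26 and 2.31 in controls, and for Stbd1, at 0.711 and 0.847 in mutants and 1.75 and 2.10 in controls.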

How the results depend on the processing

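The liver direction of the 9 genes was the same with both other pseudocounts, both other filters, quantile normalization, edgeR, DESeq2 and the replicate block. Since their groups do not overlap, leaving out a library cannot turn it; the log2 difference then ranged from 1.93 to 2.93 for G6pc, from 4.34 to 5.32 for Lpin1 and from 0.68 to 1.37 for Cebpb. The number of genes called in liver was 0 in the limma fit, 11 with no filter on low values, 211 with DESeq2 and 60 with the replicate block. In spleen it was 0, and 22, 182 and 356 under those settings. In brain it was 4, and 13 with no filter and 41 with DESeq2, and in fibroblasts it was 0 and 3 with DESeq2. Leaving out 1 library gave 0 to 173 calls in spleen and 6 to 112 in brain; the cause was not tested. The main fit did not use the replicate numbers as pairs. Same-numbered libraries correlated at 0.58 in liver, -0.03 in spleen and 0.08 in brain. In fibroblasts they correlated at -0.08, 0.43 and 0.02, and not every library there correlated best with its own number. With 2 libraries a group, same-numbered and other correlations differ only in sign, so in liver, spleen and brain they cannot decide whether the numbers are pairs. In spleen, with 1 library left out, the log2 difference of G6pc ranged from -0.86 to 2.67, of Pck1 from -0.73 to 3.50 and of Fbp1 from -0.62 to 0.32, and in fibroblasts that of Pdk4 from -0.86 to 0.32 and of Cebpb from -0.22 to 0.28. Under the replicate block limma called Tat (2.39), Lpin1 (1.27) and Pdk4 (3.08) in spleen, and no filter also called Pdk4. With 1 library left out, the liver medians ranged from -0.53 to 0.21 for the enzymes and transporters, from -0.31 to 0.52 for the amino acid enzymes, from -0.27 to 0.10 for the feeding-induced genes and from -0.24 to 0.08 for the glycogen genes, all with a change of sign, and from 0.22 to 0.56 for the regulators. In brain and fibroblasts, 5 and 6 of the 9 genes had a mean signal under 1 and were not tested.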

Other observations

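In brain, DESeq2 called 1 gene of the feeding-induced list, Slc2a1, the glucose transporter of the blood-brain barrier, named because it was called. It had 123 and 81.9 in mutant brains against 54.1 and 60.2 in control brains (log2 difference 0.81 ± 0.18 SE, limma adjusted p = 0.503, DESeq2 adjusted p = 0.00506). In spleen DESeq2 called Thrsp of the same list, at 5.18 and 3.48 in mutant spleens against 0.827 and 0.835 in control spleens (DESeq2 adjusted p = 0.0368), also named because it was called. The glucocorticoid receptor targets had 14 of 16 above 0 in brain with a median log2 difference of 0.29 and 0 calls by limma or DESeq2, with 5 at an unadjusted p under 0.05, and 4 of 14 above 0 in fibroblasts with a median of -0.03. Over all tested genes, 46.1% were above 0 in brain and 48.9% in fibroblasts.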
